A study of Homo sapiens with 4 samples.

Results

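The genes described here encode the transcription factor AP-1 and other immediate-early products, and were followed in HuCCT1 cells, an established line from a human bile duct cancer (cholangiocarcinoma). They are the Jun proteins JUN, JUNB and JUND, the Fos proteins FOS, FOSB, FOSL1 and FOSL2, the related factor ATF3, the zinc finger factor EGR1, and IER3. All 10 were measured, out of 18377 genes on the array. A gene was taken from the array rows to which the platform annotation gives its symbol and no other. JUN, JUNB, JUND, FOS, FOSB, FOSL1, FOSL2, ATF3 and EGR1 had 1 row each, and IER3 took the mean of its 3 rows.

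RNA was hybridised to 4 Affymetrix Human Gene ST arrays, 1 for each condition. The cells had been given VPA, GEM or the GEM_VPA combination, or were left untreated. The abbreviations are the labels' own and are read with their usual meanings, VPA as valproic acid, which inhibits histone deacetylases, and GEM as gemcitabine, a nucleoside analogue. The sources used here state no dose, exposure time or culture batch. All directions follow the labels as given, and whether any array's label was exchanged with another's was not tested.

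AP-1 is a dimer of basic leucine zipper (bZIP) proteins. Jun proteins pair with themselves or with Fos proteins, while Fos proteins need a Jun partner to bind DNA. Transcription of the immediate-early genes starts within minutes of a growth or stress signal without new protein synthesis, through factors that mitogen-activated protein (MAP) kinases switch on. In epithelial cancer cells AP-1 is known for the control of proliferation, invasion and stress responses. IER3 shares the rapid induction but is a short-lived regulator of survival and kinase signalling, not a transcription factor, so the name of this gene group covers it only loosely.

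Promoter letters are shown for the 3 members whose levels differed most between the arrays, JUN, FOSL2 and ATF3, and for EGR1, which had another pattern. RefSeq (GRCh38.p14) windows were at hand for 8 of the 10 members, without FOSL1 and IER3. The 150 bases before the annotated start are printed 5′ to 3′ on the gene's strand. The windows lie at chr1:58784048-58784197 (minus strand) for JUN, chr1:212565257-212565406 (plus) for the upstream start of ATF3, chr2:28392708-28392857 (plus) for FOSL2 and chr5:138465329-138465478 (plus) for EGR1. Capitals mark TGACATCA, an AP-1 and CREB type element, in JUN and ATF3, the core TGACGT of the cyclic AMP response element in FOSL2, and the CArG boxes, bound by serum response factor, in EGR1.
JUN: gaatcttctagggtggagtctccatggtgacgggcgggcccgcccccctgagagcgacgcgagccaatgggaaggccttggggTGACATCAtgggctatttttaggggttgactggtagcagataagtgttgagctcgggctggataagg
ATF3: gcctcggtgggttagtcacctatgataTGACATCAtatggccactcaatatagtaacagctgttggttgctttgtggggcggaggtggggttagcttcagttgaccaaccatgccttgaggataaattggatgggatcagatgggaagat
FOSL2: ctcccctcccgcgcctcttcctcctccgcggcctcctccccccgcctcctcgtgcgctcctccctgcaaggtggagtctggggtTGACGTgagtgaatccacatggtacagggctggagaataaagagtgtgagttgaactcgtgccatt
EGR1: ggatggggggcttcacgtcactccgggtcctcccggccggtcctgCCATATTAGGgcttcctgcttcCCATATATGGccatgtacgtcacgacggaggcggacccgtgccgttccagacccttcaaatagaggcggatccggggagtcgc

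The letters were searched on both strands in the 250 bases before each start, and the same was done for 35116 RefSeq windows. TGACATCA lay 67 bases before the start of JUN and 123 bases before the upstream start of ATF3. It was in 2 of the 8 members and in 2.37% of all windows. The ATF3 window further downstream held none of the motifs searched. TGACGT was found in 5 of the 8 members (JUND, FOS, FOSB, FOSL2 and EGR1) and in 7.1% of all windows. The full palindrome TGACGTCA, which contains TGACGT and was counted under both, was in JUND alone and in 1.65% of windows. The classical AP-1 site TGANTCA was in 0 of the 8 members and in 6.57% of windows. The EGR1 site GCGNGGGCG was in EGR1 itself and in 8.41% of windows. Within these 250 bases, CArG boxes were in EGR1 alone of the 8 members, at 2 places, and in 1.16% of windows. Bases further upstream were not searched, so elements there would be missed. These matches describe the letters of a window and do not show binding.

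The arrays formed close pairs that did not follow the presence of either drug, which bears on every value below. Over all 28869 rows, GEM_VPA correlated with untreated at 0.996 (Pearson) and VPA with GEM at 0.996, against 0.984 to 0.987 for the other pairs. The robust SD of log2 differences over genes was 0.147 for GEM_VPA against untreated and 0.158 for VPA against GEM, and 0.253 to 0.27 for the other pairs. All 7 biliary and epithelial markers examined were at or above the array median on every array. Markers of other cells reached that level on every array for 1 of 4 hepatocyte genes (APOA1), 1 of 6 fibroblast genes (COL1A1), 0 of 4 leukocyte genes and 0 of 3 endothelial genes. Leukocyte markers had medians of 7.02 on the VPA array, 7.05 on GEM, 6.56 on GEM_VPA and 6.89 on untreated. These medians lay below the array medians over all rows, which were 7.87 to 7.92. They were higher on the single-drug arrays, as JUN, FOSL2 and ATF3 were, and as 30.6% of all genes were. The part of leukocyte markers in those results was not tested. Their median log2 ratios over untreated were 0.14 with VPA, 0.16 with GEM and -0.12 with GEM_VPA. The biliary and epithelial markers had median log2 ratios over untreated of 0.51 with VPA, 0.61 with GEM and 0.01 with GEM_VPA. Their median levels ran the other way, at 12.68 on VPA, 12.63 on GEM, 12.84 on GEM_VPA and 12.83 on untreated. Levels are log2 intensities, and differences of 2 levels are log2 ratios. With 1 array per condition there is no replicate error and no test. A gene was counted as different where its log2 ratio reached 1 in either direction (2-fold, the submitters' limit) and its higher level reached that array's median over all rows.

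JUN, the defining subunit of AP-1, differed most. Its log2 level was 10.80 on the VPA array, 10.65 on the GEM array, 9.58 on the GEM_VPA array and 9.36 on the untreated array. The levels with either drug alone lay 1.07 or more above those with both drugs or none. VPA and GEM differed by 0.15 and GEM_VPA and untreated by 0.23, against robust SDs over genes of 0.158 and 0.147 for these pairs.

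JUN was thus 2.72-fold higher with VPA than untreated (log2 ratio 1.44), and 2.45-fold higher with GEM than untreated (1.29). It ranked 72 among 11611 genes at level in the VPA comparison and 68 among 11593 in the GEM comparison, counted from the highest log2 ratio. In size, 0.599% of all genes differed by as much or more with VPA and 1.13% with GEM. Both comparisons use the same untreated array. Against the single drugs, GEM_VPA had less JUN, with log2 ratios of -1.22 over VPA and -1.07 over GEM.

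**Figure D1:**
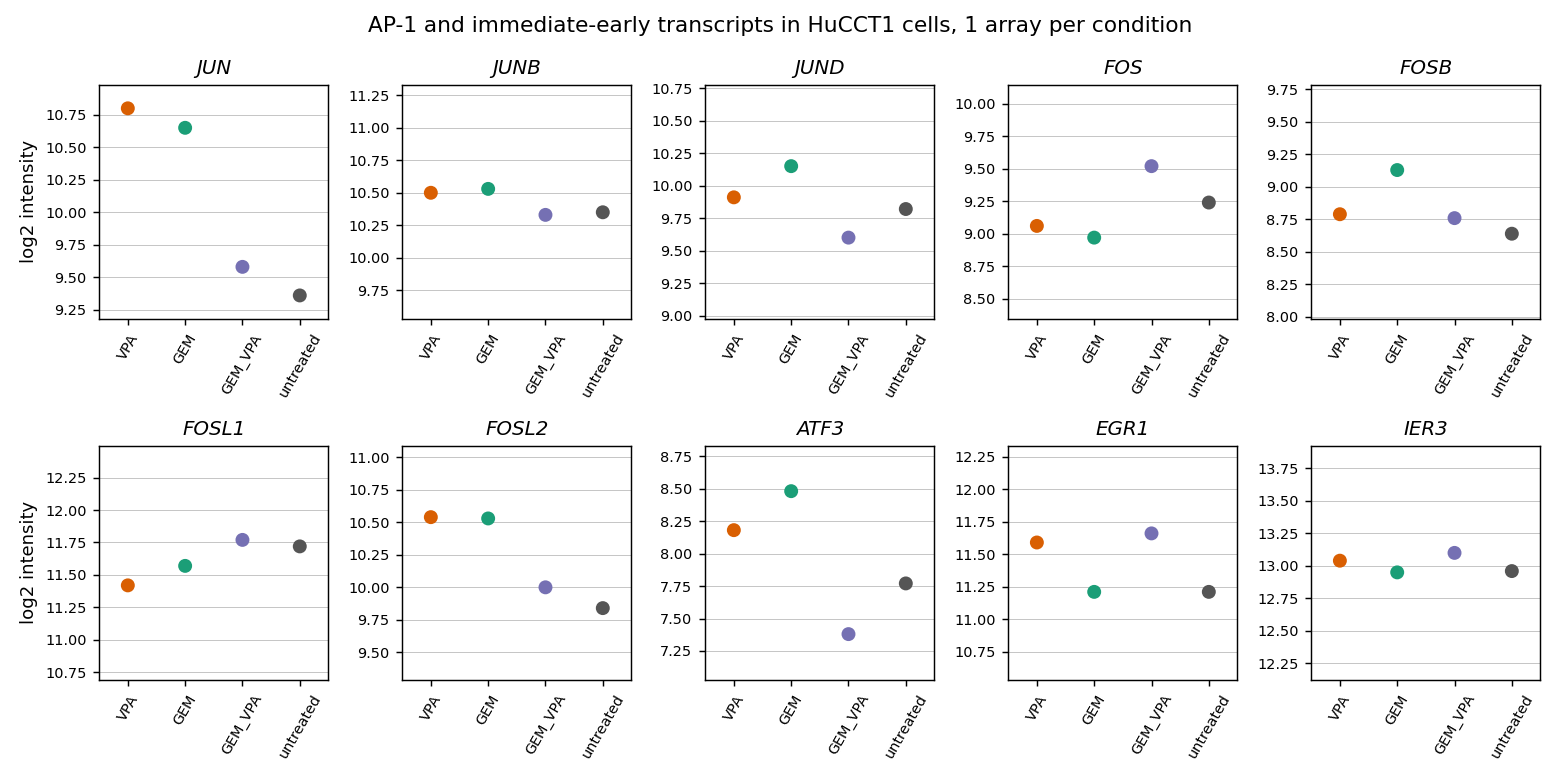
Log2 intensity (vertical axis) of each AP-1 and immediate-early gene on the VPA, GEM, GEM_VPA and untreated arrays (horizontal axis), 1 point per array, with the same axis span in every panel. JUN, FOSL2 and ATF3 lie higher with either drug alone, while EGR1 lies higher on the VPA and GEM_VPA arrays.

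JUNB and JUND, the other Jun proteins, varied less. JUNB, often a weaker activator than JUN, read 10.50 with VPA, 10.53 with GEM, 10.33 with GEM_VPA and 10.35 untreated. Its span over the arrays was 0.21, and the levels with a single drug were 0.15 or more above the others. JUND, the most evenly expressed Jun protein in many tissues, read 9.91 with VPA, 10.15 with GEM, 9.60 with GEM_VPA and 9.82 untreated. JUND was highest with GEM and lowest with GEM_VPA, at a log2 ratio of -0.55 for GEM_VPA over GEM, a size that 14.3% of all genes reached or passed. The VPA and untreated levels of JUND were 0.10 apart.

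FOSL2, which encodes the Fos protein Fra-2, came closest to JUN. It read 10.54 with VPA, 10.53 with GEM, 10.00 with GEM_VPA and 9.84 untreated. VPA and GEM lay 0.01 apart, and both were at least 0.53 above the other arrays. The increase was 1.63-fold with VPA and 1.61-fold with GEM over untreated (log2 ratios 0.70 and 0.69), which is below the 2-fold limit. Of all genes, 7.47% and 8.21% differed by as much or more in size.

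The other Fos genes did not share one order. FOS, the best known Fos protein, read 9.06 with VPA, 8.97 with GEM, 9.52 with GEM_VPA and 9.24 untreated. It ran opposite to JUN, with both single-drug arrays 0.18 or more below the others, and its log2 ratio was 0.55 for GEM_VPA over GEM and 0.46 over VPA. FOSL1, which encodes Fra-1 and is often raised in invasive carcinoma cells, also had its lowest levels with the single drugs. It read 11.42 with VPA, 11.57 with GEM, 11.77 with GEM_VPA and 11.72 untreated. FOSB read 8.79 with VPA, 9.13 with GEM, 8.76 with GEM_VPA and 8.64 untreated. Its GEM level stood apart from the rest, while VPA and GEM_VPA differed by 0.03.

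ATF3, a bZIP factor induced by many stresses that can pair with Jun proteins, read 8.18 with VPA, 8.48 with GEM, 7.38 with GEM_VPA and 7.77 untreated. It was highest with GEM and lowest with GEM_VPA, and the single-drug levels were at least 0.41 above the others. The GEM_VPA array held 2.15-fold less ATF3 than the GEM array (log2 ratio -1.10) and 1.75-fold less than the VPA array (-0.80). Over untreated, the log2 ratio was 0.41 with VPA, 0.70 with GEM and -0.40 with GEM_VPA, and 4.14% of all genes differed by as much or more in the last of these. ATF3 reached the array median on 2 of 4 arrays, VPA and GEM. Its GEM_VPA and untreated levels were below the median, where RMA values are compressed, so its differences from those arrays may be understated.

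EGR1, a factor induced by ERK signalling, and IER3 had another order. EGR1 read 11.59 with VPA, 11.21 with GEM, 11.66 with GEM_VPA and 11.21 untreated. The arrays with VPA were both 0.38 or more above those without it, and GEM and untreated were equal to 2 decimals. The difference with VPA was 1.30-fold without GEM (log2 ratio 0.38) and 1.37-fold with GEM (0.45), on pairs of arrays that share none. Of all genes, 23.6% and 19.2% differed by as much or more in size. Within the close pairs, the log2 ratio of EGR1 was 0.45 for GEM_VPA over untreated and 0.38 for VPA over GEM. These sizes were reached or passed by 2.8% and 6.22% of all genes.

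IER3 read 13.04 with VPA, 12.95 with GEM, 13.10 with GEM_VPA and 12.96 untreated. It showed the same order as EGR1 with a span of 0.15. Its 3 rows gave log2 ratios of 0.06 to 0.09 for VPA over untreated and 0.14 to 0.16 for GEM_VPA over GEM. A row repeated the levels of another on every array (12.991 with VPA, 12.906 with GEM, 13.046 with GEM_VPA and 12.896 untreated). The 3 rows are therefore not 3 separate measurements, and their mean counts the repeated values again.

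Counts of 2-fold differences were small. With VPA over untreated, 1 of 10 members was higher (JUN) and 0 were lower, where 1.2% of all genes were higher and 1.32% lower. With GEM over untreated, 1 of 10 was higher (JUN) and 0 were lower, against 0.936% and 1.9% of all genes. GEM_VPA over untreated had 0 of 10 members different in either direction, and 0.0925% of all genes. For GEM_VPA over GEM, 2 of 10 were lower (JUN and ATF3) and 0 higher, with 1.13% of all genes lower and 2.28% higher. GEM_VPA over VPA had 1 of 10 lower (JUN) and 0 higher, with 1.06% and 0.936% of all genes. VPA over GEM had 0 of 10 different, with 0.19% of all genes.

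At a 1.5-fold limit FOSL2 and ATF3 joined JUN. With VPA over untreated 2 of 10 members were higher (JUN and FOSL2; 4.2% of all genes), and with GEM over untreated 3 of 10 (JUN, FOSL2 and ATF3; 3.75% of all genes). GEM_VPA over GEM had 2 of 10 lower (JUN and ATF3; 4.16% of all genes), and GEM_VPA over VPA also 2 of 10, the same genes (3.73% of all genes). The median log2 ratio over all 10 members was 0.15 for VPA and 0.26 for GEM over untreated, beside -0.01 over all genes in each. It was 0.13 for GEM_VPA over untreated (all genes -0.03), -0.29 for GEM_VPA over GEM (-0.02), -0.10 for GEM_VPA over VPA (-0.01) and -0.01 for VPA over GEM (-0.01).

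**Figure D2:**
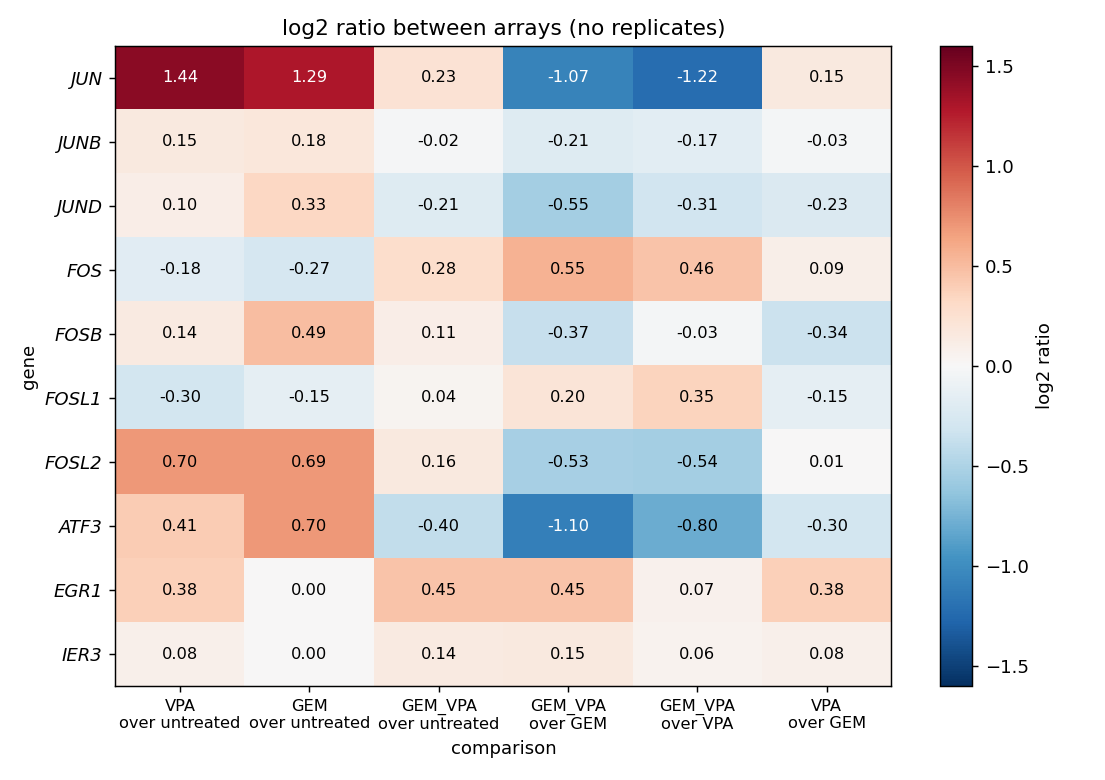
Log2 ratios of each gene (rows) in the 6 comparisons between arrays (columns), with red for higher and blue for lower on the array named above. JUN has the largest values over untreated, 1.44 with VPA and 1.29 with GEM, and the GEM_VPA over untreated column holds no value beyond 0.45 in size.

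By the order of the arrays, 6 of 10 members (JUN, JUNB, JUND, FOSB, FOSL2 and ATF3) were higher on both single-drug arrays than on both others, as were 30.6% of all genes. FOS and FOSL1, 2 of 10, were lower on both single-drug arrays, as were also 30.6% of all genes. The smallest gap was that of FOSB, at 0.03. After centring each array on its median FOSB left this group, leaving 5 of 10. EGR1 and IER3, 2 of 10, were higher on both arrays with VPA than on both without, as were 10.6% of all genes. No member was higher on both arrays with GEM than on both without (0 of 10), where 5.75% of all genes were.

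The series also asks how both drugs act together. If log2 differences of the single drugs added up, JUN would have read 12.09 on the GEM_VPA array, against the measured 9.58. This departure of -2.51 was reached or passed in size by 0.865% of all genes. ATF3 departed by -1.51 (5.63% of all genes) and FOSL2 by -1.23 (9.07%). JUND, FOSB and JUNB departed by -0.64 (26.1% of all genes), -0.51 (33.5%) and -0.35 (45.9%). FOS and FOSL1 departed upward, by 0.73 (22.5%) and 0.50 (34.6%). Departures of these sizes were thus common among all genes. EGR1 and IER3 were near additive, at 0.07 and 0.06, sizes that 86.4% and 87.7% of all genes reached. The median over all 10 members was -0.43, beside -0.01 over all genes. By its formula the departure keeps its value if the labels are exchanged within a close pair (VPA with GEM, or GEM_VPA with untreated), but not if they are exchanged between the pairs. The order of EGR1, IER3 and SPP1 by the presence of VPA rests on the labels within the pairs too. So does that of CCN2, SNAI2 and RPS6KA5, named below, which were also higher on both arrays with VPA. For RPS6KA5 the log2 ratio of VPA over untreated was only 0.01.

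**Figure D3:**
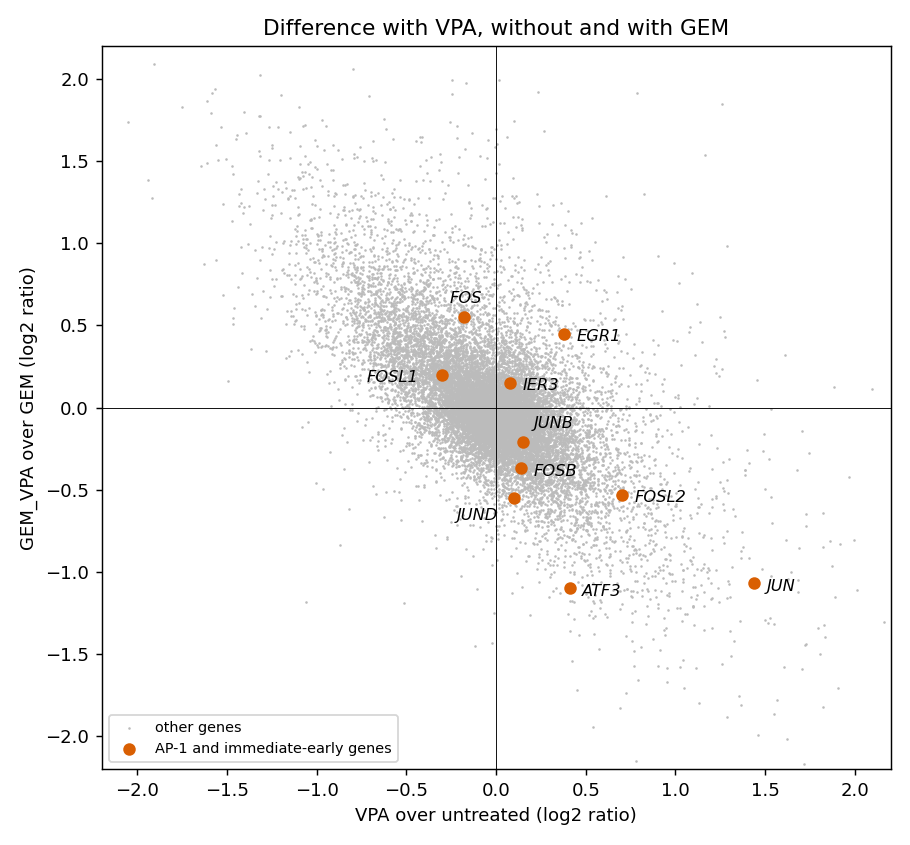
Log2 ratio of VPA over untreated (horizontal axis) against GEM_VPA over GEM (vertical axis), which share no array, for 18377 genes (36 lie outside the axes), with the AP-1 and immediate-early genes in orange. JUN lies at 1.44 and -1.07 and ATF3 at 0.41 and -1.10, below the horizontal line, while EGR1 lies at 0.38 and 0.45 and IER3 at 0.08 and 0.15, above it.

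The genes whose profile over the 4 arrays was nearest to that of JUN were PLEKHM1, RAB30 and CLIC5, at Euclidean distances of 0.105, 0.111 and 0.121 between levels centred on each gene's mean, among 11808 genes at level on at least 1 array. PLEKHM1, a lysosomal adaptor protein, read 9.81 with VPA, 9.76 with GEM, 8.69 with GEM_VPA and 8.51 untreated. Nearest to ATF3 were SAV1, a Hippo pathway scaffold, C1RL and ANXA4, an annexin, at 0.073, 0.076 and 0.082. Among the members, FOSL2 was nearest to JUN at 0.649, with 416 other genes nearer, and JUND was nearest to ATF3 at 0.453, with 711 nearer. Distances over 4 arrays are a description and carry no statement on shared control.

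Other bZIP proteins, which can pair with Jun, Fos or one another, included no gene past 2-fold. Of 23 measured (among them BATF, JDP2, ATF4, CREB and MAF family genes), 0 were higher or lower in any of the 6 comparisons. Their medians were 0.04 for VPA and -0.10 for GEM over untreated. The shares of all genes were 1.2% higher and 1.32% lower with VPA, and 0.936% and 1.9% with GEM. A count of 0 of 23 lies near these shares and is no result about the list.

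The median of 30 other immediate-early genes measured was 0.15 for VPA over untreated. Of these 30, 4 were at least 2-fold higher (1.2% of all genes) and 0 lower (1.32%). They were CCN1 (log2 ratio 1.87), a matricellular protein, PLK3, a stress-responsive kinase (1.29), CCN2, a relative of CCN1 (1.15), and SNAI2, the repressor Slug (1.12). With GEM over untreated 2 were higher (0.936% of all genes), CCN1 (1.26) and PLK3 (1.22), and 0 lower (1.9%), with a median of 0.23. PLK3 read 11.21 with VPA, 11.14 with GEM, 9.99 with GEM_VPA and 9.92 untreated, the same order as JUN. GEM_VPA over GEM had 1 lower (1.13% of all genes), PLK3 (-1.16). GEM_VPA over VPA had 2 lower (1.06%), CCN1 (-1.57) and PLK3 (-1.22). The medians were -0.15 in both comparisons. SNAI2 was the only one past 2-fold in GEM_VPA over untreated (1.30), where 0.0925% of all genes were. CCN2 was the only one in VPA over GEM (1.00, or 0.99 after centring each array on its median), where 0.19% of all genes were.

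MAP kinase feedback genes were mostly phosphatases and adaptors that switch the pathway off, and the list also held the transcription factors ETV1, ETV4 and ETV5. Of 21 measured, 1 was higher with VPA (1.2% of all genes) and 1 with GEM (0.936%) over untreated. In each case it was DUSP10, a phosphatase of JNK and p38 (1.05 and 1.00). In GEM_VPA over GEM 1 was lower (1.13% of all genes), DUSP14, another phosphatase (-1.03). With each array centred on its median, DUSP10 with GEM (0.96) and DUSP14 (-0.98) were under the limit, and DUSP10 with VPA was just short of it. Their medians were 0.15 for VPA and 0.01 for GEM over untreated.

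Upstream kinases and transcription factors of the pathway had 0 of 30 past 2-fold in either single drug over untreated. The medians were 0.02 with VPA and -0.07 with GEM. The shares of all genes were 1.2% higher and 1.32% lower with VPA, and 0.936% and 1.9% with GEM, which 0 of 30 lies near. GEM_VPA over GEM had 3 higher (2.28% of all genes). They were the ribosomal S6 kinase RPS6KA3 (1.13), the MAP kinase kinase kinase MAP3K4 (1.11) and the kinase RPS6KA5 (1.02). GEM_VPA over VPA had 1 higher (0.936% of all genes), MAP3K4 (1.08). MAP3K4 read 9.21 with VPA, 9.18 with GEM, 10.29 with GEM_VPA and 10.00 untreated, with both single-drug arrays below the others, where JUN had them above.

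The median of 27 measured genes known as AP-1 targets was 0.18 for VPA over untreated. Of these 27, 2 were higher (1.2% of all genes) and 0 lower (1.32%). They were SPP1, which encodes osteopontin (1.26), and HBEGF, a ligand of the EGF receptor (1.05, just under the limit with each array centred on its median). With GEM over untreated 0 of 27 were higher (0.936% of all genes) or lower (1.9%), with a median of -0.06. SPP1 read 8.91 with VPA, 7.28 with GEM, 9.13 with GEM_VPA and 7.65 untreated. It was thus higher on both arrays with VPA, the order of EGR1 and not that of JUN, and was below the array median on the arrays without VPA. GEM_VPA over GEM had 2 higher (2.28% of all genes), SPP1 (1.85) and MMP7, a matrix metalloproteinase (1.27). MMP7 read 7.71 with VPA, 6.84 with GEM, 8.11 with GEM_VPA and 7.73 untreated. It reached the array median only on the GEM_VPA array, and so passed the level rule through that array alone. SPP1 was also past 2-fold in GEM_VPA over untreated (1.48) and in VPA over GEM (1.63), where 0.0925% and 0.19% of all genes were.

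Among 10 measured EGR1 cofactors and target genes, 1 was higher in each comparison over untreated and 0 were lower. FN1, fibronectin, was that gene, higher with VPA (2.71), with GEM (2.08) and with GEM_VPA (1.13) than untreated. The shares of all genes were 1.2% higher and 1.32% lower with VPA, and 0.936% and 1.9% with GEM. With GEM_VPA 0.0925% of all genes differed. FN1 read 11.52 with VPA, 10.90 with GEM, 9.95 with GEM_VPA and 8.82 untreated. In GEM_VPA over GEM 1 was higher (2.28% of all genes), FGF2, a growth factor (1.18). GEM_VPA over VPA had 2 lower (1.06% of all genes). They were FN1 (-1.58) and F3, tissue factor (-1.04, or -0.99 after centring each array on its median). Medians were 0.26 for VPA and 0.12 for GEM over untreated.

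**Figure D4:**
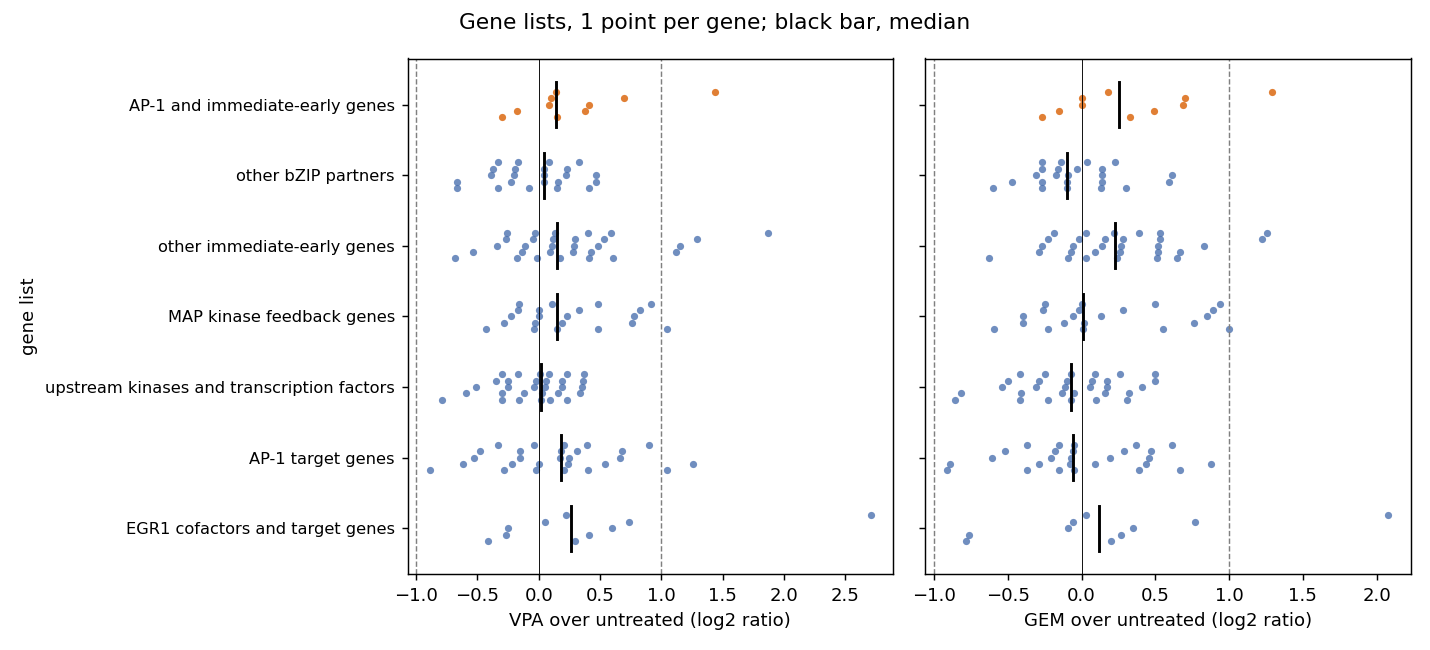
Log2 ratios of VPA over untreated (left) and GEM over untreated (right) for the genes of each list (rows), 1 point per gene, with a black bar at the median and dashed lines at the 2-fold limits. The AP-1 and immediate-early genes have medians of 0.15 and 0.26, and the other bZIP partners, with medians of 0.04 and -0.10, hold no point past a dashed line.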

How the data were processed

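Total RNA of HuCCT1 cells was measured on whole-transcript Affymetrix arrays, 1 per condition. The deposited values are log2 intensities, made by the authors by normalization in GeneSpring GX 11.5, as the series text says. The submitters' processing notes also name RMA. RMA is meant to equalise intensity distributions between arrays, and it compresses low values. The deposited medians over all rows were still 7.92 for VPA and 7.91 for GEM, against 7.87 for GEM_VPA and 7.87 for untreated. Detection calls were not used here, so signal over background is unknown beyond the level rule, and the number of arrays limits the precision. The platform annotation gave 1 symbol to 19310 of 28869 rows, several to 1752 and none to 7807. Entrez IDs matched the RefSeq gene table for 99.84% of the named rows. Rows of a gene were averaged.

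Groups followed the labelled agent. The 6 comparisons are differences of log2 levels, and the departure from additivity is GEM_VPA minus GEM minus VPA plus untreated. No test was run, because the additive model's only residual is that departure itself. The members, lists and rules were chosen with earlier results of these data known. Named genes were all 10 members, up to 4 genes per list and comparison past the rule, and the 3 genes nearest to each member that spanned at least 1. Simulated data checked only that the code follows the counting rule and the departure formula. They had large shifts in well expressed genes and less noise than these arrays, so they say nothing on the calls here. Alternatives changed the normalization, the row choice, the level rule and the fold limit. Software was Python 3.11.15 with numpy 2.4.6 and pandas 2.3.3.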

Additional observations from a re-analysis of the deposited data

Results flagged for a closer look

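Each drug was set against its absence on pairs of arrays that share none, once without and once with the other drug. For 8 of the 10 members the log2 ratio had opposite signs in both settings and for both drugs. The same held for 61.2% of all genes, so the count itself is no result about the members. With 1 array per condition this difference was not tested, and the sign of a small difference carries little weight. The departures from additivity were -2.51 for JUN, -1.51 for ATF3, -1.23 for FOSL2, -0.64 for JUND, -0.51 for FOSB, -0.35 for JUNB, 0.50 for FOSL1 and 0.73 for FOS. For JUN the difference with VPA was -1.07 with GEM present and 1.44 without it, and the difference with GEM was -1.22 with VPA present and 1.29 without it.

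Of the 15 genes named from the other lists, 11 had opposite signs in the same way, also untested, and CCN2, RPS6KA5, SNAI2 and SPP1 did not. Among the 11, departures were -3.66 for FN1, -2.83 for CCN1, -2.45 for PLK3, -1.88 for DUSP10, -1.85 for DUSP14, -1.78 for HBEGF and -1.32 for F3. They were 1.90 for MAP3K4, 1.72 for RPS6KA3, 1.43 for FGF2 and 1.29 for MMP7, whose difference with VPA alone was only -0.02. MMP7 was below the array median on every array but GEM_VPA.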

How the results depend on the processing

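No paired analysis was possible because each condition has 1 array and the labels carry no replicate numbers. Array centring, repeated quantile normalization and the choice of row moved the 60 member ratios by at most 0.12 and the 6 member medians by at most 0.09. JUN stayed past 2-fold in its 4 comparisons under these settings and both level rules. With both values required at the array median, GEM_VPA over GEM kept 1 member (JUN), without ATF3, and the AP-1 targets had 1 gene, against 3. At a 1.5-fold limit the member counts were 2 for VPA and 3 for GEM over untreated and 2 for GEM_VPA over VPA, and at 3-fold they were 0 in every comparison. Counting list genes past the limit in any comparison, the 1.5-fold limit gave 5 bZIP partners (0 at 2-fold), 10 other immediate-early genes (4), 7 feedback genes (2), 9 AP-1 targets (3) and 6 EGR1 genes (3). The 3-fold limit gave 1 other immediate-early gene, 0 feedback genes, 0 upstream genes (3 at 2-fold), 1 AP-1 target and 1 EGR1 gene. No share over all genes was computed for counts taken over any comparison, so these counts are no result about the lists. Array centring left 0 feedback genes past 2-fold. Repeated quantile normalization changed the departures of JUNB to -0.54, JUND to -0.79, FOSL1 to 0.29, FOSL2 to -1.41 and EGR1 to -0.12, so the sign for EGR1 is not settled. The cause was not tested. The spread used as tolerance was 0.147, the robust SD over genes between GEM_VPA and untreated.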

Other observations

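The following genes of the lists did not reach 2-fold and were chosen after their values were seen. DUSP1, a phosphatase and itself an immediate-early gene, read 11.07 with VPA, 11.04 with GEM, 10.16 with GEM_VPA and 10.29 untreated. NR4A1, an immediate-early nuclear receptor, read 9.73 with VPA, 9.65 with GEM, 9.07 with GEM_VPA and 9.14 untreated. Both, like JUN, were higher with either drug alone than on the other arrays. IER2 ran the other way, as FOS did, at 9.79 with VPA, 9.77 with GEM, 10.09 with GEM_VPA and 10.06 untreated. MYC, another immediate-early gene, spanned 12.22 to 12.40 over the arrays, and SRF, the factor that binds CArG boxes, 10.96 to 11.05.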
